A study of Mus musculus with 20 samples.

Results

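The genes described here are 7 collagens and matrix proteins of the mouse liver: Col3a1, Col14a1, Lum, Fbln5, Ltbp4, Adamtsl2 and Adamts4. They were chosen by name, as matrix genes among the mouse genes to which deposited counts could be attributed, with earlier fold changes of the same libraries in view. No threshold was part of that choice, and the fold changes below therefore describe these genes and are not independent support for a change in matrix genes. The 7 are part of 5552 mouse genes with an attributed interval and of 2200 genes with enough counts to test, and all 7 passed the filter on low counts.

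Liver RNA of 20 individual mice was sequenced, 5 mice in each of 4 groups: control mice without antibiotics, control mice with antibiotics (ABX), mice given anti-CD40 without antibiotics and mice given anti-CD40 with ABX. Anti-CD40 is an antibody to CD40, a receptor of antigen-presenting cells. The labels used here state neither the antibody's dose, timing and mode of action nor the antibiotics, the strain, sex or age of the animals, or the kit. The comparisons ask what anti-CD40 did to the level of each gene without and with ABX, whether those effects differed, and what ABX did in control and in anti-CD40 mice.

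Collagens and their partners form the scaffold around liver cells, in the portal tracts, along the sinusoids and in the capsule. In healthy liver most fibrillar collagen RNA comes from stellate cells, portal fibroblasts and other mesenchymal cells, and in chronic injury such cells lay down scar. Matrix proteins also hold latent TGF beta, and secreted proteases of the ADAMTS family cut the proteoglycans that lie between the fibres. In whole-tissue RNA, fewer cells of a type and less RNA per cell cannot be told apart.

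The mouse alignments had been counted over human exon coordinates, so each gene was measured only over the stretches that those coordinates happen to cover, and levels are not compared between genes. All positions are on mm10 (GRCm38). Col3a1 (chr1:45311538-45349706, plus strand) was measured in 3 rows over 1179 bp in 19 of 51 exons, 1118 bp of it coding. Col14a1 (chr15:55307750-55520803, plus strand) was measured in 4 rows over 387 bp of coding sequence in 5 of 48 exons. Lum (chr10:97565128-97572703, plus strand) was measured over 205 bp of the 3′ UTR in the last of its 3 exons, in a row that also covers 1246 bp past the gene. Fbln5 (chr12:101746565-101819055, minus strand) was measured over 1789 bp, of which 175 bp are coding, 768 bp UTR and 846 bp in exons of noncoding transcripts, in a row that also takes in 6518 bp of intron and 1448 bp past the gene. Ltbp4 (chr7:27305136-27337692, minus strand) was measured over 301 bp of coding sequence in exons 7, 8 and 9 of 33. Adamtsl2 (chr2:27079379-27108981, plus strand) was measured in 2 rows over 1848 bp, of which 346 bp are coding and 1502 bp lie in exons of noncoding transcripts. Its first row also covers 669 bp outside the gene. Adamts4 (chr1:171250421-171260637, plus strand) was measured over the 117 bp of coding exon 4 of 9, in a row that lies wholly inside that exon. The rows of Col3a1, Col14a1, Ltbp4 and Adamtsl2 also cover introns of these genes, so they count fragments of unspliced RNA too. Those of Lum and Adamts4 do not. Introns take 1420, 3234 and 2330 bp in the rows of Col3a1, beside 209, 675 and 412 bp of exon. In those of Col14a1 they take 4477, 8615, 763 and 2867 bp, beside 65, 175, 80 and 67 bp. They take 627 bp in Ltbp4, beside 301 bp, and 3024 and 1477 bp in Adamtsl2, beside 265 and 1583 bp. Introns are thus the larger part of each of these rows except the second of Adamtsl2. The share of counts from introns was not measured. Of the exon bases above, 127 bp of Col3a1 and 729 bp of Adamtsl2 lie in more than 1 deposited row. The counting command of the file headers sets no option to count fragments that fall on several rows.

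Of the counted coding sequence, 1 exon of each of 5 genes is printed from the GENCODE M21 transcripts, 5′ to 3′ on the gene's strand. The values are counts over whole rows and not over these exons alone, except in Adamts4, whose row is the printed stretch. In the collagens, capitals mark each in-frame glycine codon (GGN). In the other genes, capitals mark each in-frame cysteine codon (TGT or TGC).
Col3a1 exon 43, chr1:45343394-45343501: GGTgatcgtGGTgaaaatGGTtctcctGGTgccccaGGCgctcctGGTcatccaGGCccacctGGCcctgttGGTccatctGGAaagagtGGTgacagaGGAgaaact
Col14a1 exon 9, chr15:55372572-55372733: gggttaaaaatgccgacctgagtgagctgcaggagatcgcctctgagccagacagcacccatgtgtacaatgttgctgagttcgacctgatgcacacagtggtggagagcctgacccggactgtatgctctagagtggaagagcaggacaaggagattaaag
Ltbp4 exon 9, chr7:27328740-27328862: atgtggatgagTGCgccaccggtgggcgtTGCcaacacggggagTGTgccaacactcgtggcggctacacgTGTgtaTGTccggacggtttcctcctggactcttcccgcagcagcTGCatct
Adamtsl2 exon 3, chr2:27082382-27082524: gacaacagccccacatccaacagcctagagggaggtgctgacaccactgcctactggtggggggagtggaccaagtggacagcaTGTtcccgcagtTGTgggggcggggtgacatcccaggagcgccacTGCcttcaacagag
Adamts4 exon 4, chr1:171253906-171254022: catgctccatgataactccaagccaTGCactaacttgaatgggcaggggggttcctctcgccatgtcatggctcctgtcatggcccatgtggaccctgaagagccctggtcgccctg
Col3a1 exon 43 has 12 glycine codons among 36, in the repeat that gives a fibrillar collagen its triple helix, whereas Col14a1 exon 9 has 0 among 53 and lies outside any such repeat. The 40 whole codons of Ltbp4 exon 9 hold 6 cysteine codons, the number of an EGF-like repeat, the unit that fills much of this protein. Adamtsl2 exon 3 has 3 cysteine codons among 47 and Adamts4 exon 4 has 1 among 38.

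Counts per library ranged from 5053014 to 7618736, and several properties of the libraries moved with treatment. Mitochondrial transcripts took 22.42% to 35.06% of counts in control mice, with mouse 8 the lowest and the other 9 at 28.93% or more, and 20.87% to 25.85% in anti-CD40 mice. Counts attributed to 1 mouse gene were 51.79% to 54.85% of the total in control mice and 36.17% to 41.05% in anti-CD40 mice. The part of these shifts in the anti-CD40 results was not tested. Levels are CPM (counts scaled to 1e+06 per library) after TMM scaling, a scaling that sets the bulk of genes equal between libraries, given per mouse and as mean ± SD (n = 5). A change is given as log2 fold change ± SE, with p from the quasi-likelihood test of edgeR. The test gives no SE, so the SE was derived as the size of the change divided by the square root of the F statistic. It is approximate, also where a group holds few counts. The p was adjusted by Benjamini-Hochberg over all 2200 tested genes, and the threshold for a call is 0.05. With library totals in place of TMM, the median log2 change of all genes moved from 0.03 to 0.27 for anti-CD40 without ABX, from 0.02 to 0.37 with ABX and from -0.01 to -0.14 for ABX in control mice. Called genes, 700 higher and 633 lower without ABX and 585 and 548 with ABX, then became 932 and 405, and 1035 and 312. For the difference the 96 higher and 70 lower became 110 and 27, for ABX in control mice 76 and 71 became 35 and 139, and for ABX in anti-CD40 mice 191 and 159 became 123 and 150. The plate wells in the labels put control mice 1 to 8 in column 3, control mice 9 and 10 with anti-CD40 mice 11 to 16 in column 4 and anti-CD40 mice 17 to 20 in column 5. With plate column in the model, the anti-CD40 effect without ABX therefore rests on mouse 16 against mice 9 and 10. The difference of the effects and ABX in anti-CD40 mice also have mouse 16 as their only anti-CD40 mouse without ABX. For these, only the size of the change is given. Mice 14 and 15 (anti-CD40 with ABX) and mice 19 and 20 (anti-CD40 without ABX) stood apart in the endothelial adhesion gene Pecam1, at 7.70, 7.41, 15.3 and 15.4 CPM against 35.2 to 76.9 CPM in the other 6 anti-CD40 mice and 38.0 to 74.6 CPM in control mice. The anti-CD40 effect on each of the 7 genes is therefore given also without these 4 mice, a choice made after the data had been seen. Pecam1 over all mice was -0.19 ± 0.51 (adjusted p = 0.777) without ABX, turning to 0.087 (adjusted p = 0.897) with library totals, and -0.53 ± 0.53 (adjusted p = 0.433) with ABX.

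In anti-CD40 mice RNA of Col14a1, Fbln5, Ltbp4 and Adamtsl2 was lower with and without ABX, that of Col3a1 and Lum was called lower with ABX, and that of the protease Adamts4 was higher. Without ABX, 1 of the 7 was called higher and 4 lower, beside 60.6% of all tested genes called (31.8% higher, 28.8% lower). With ABX, 1 was called higher and 6 lower, beside 51.5% of all tested genes called (26.6% higher, 24.9% lower). The CPM of the groups did not overlap for 3 of the 7 genes without ABX, beside 42.5% of all genes, and for 6 with ABX, beside 37.8%. Their median log2 fold change was -1.38 without ABX and -3.36 with ABX, and that of all tested genes was 0.03 and 0.02. The genes were chosen with these changes in view, so no reading is taken from the counts. These 2 comparisons share no library.

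**Figure D1:**
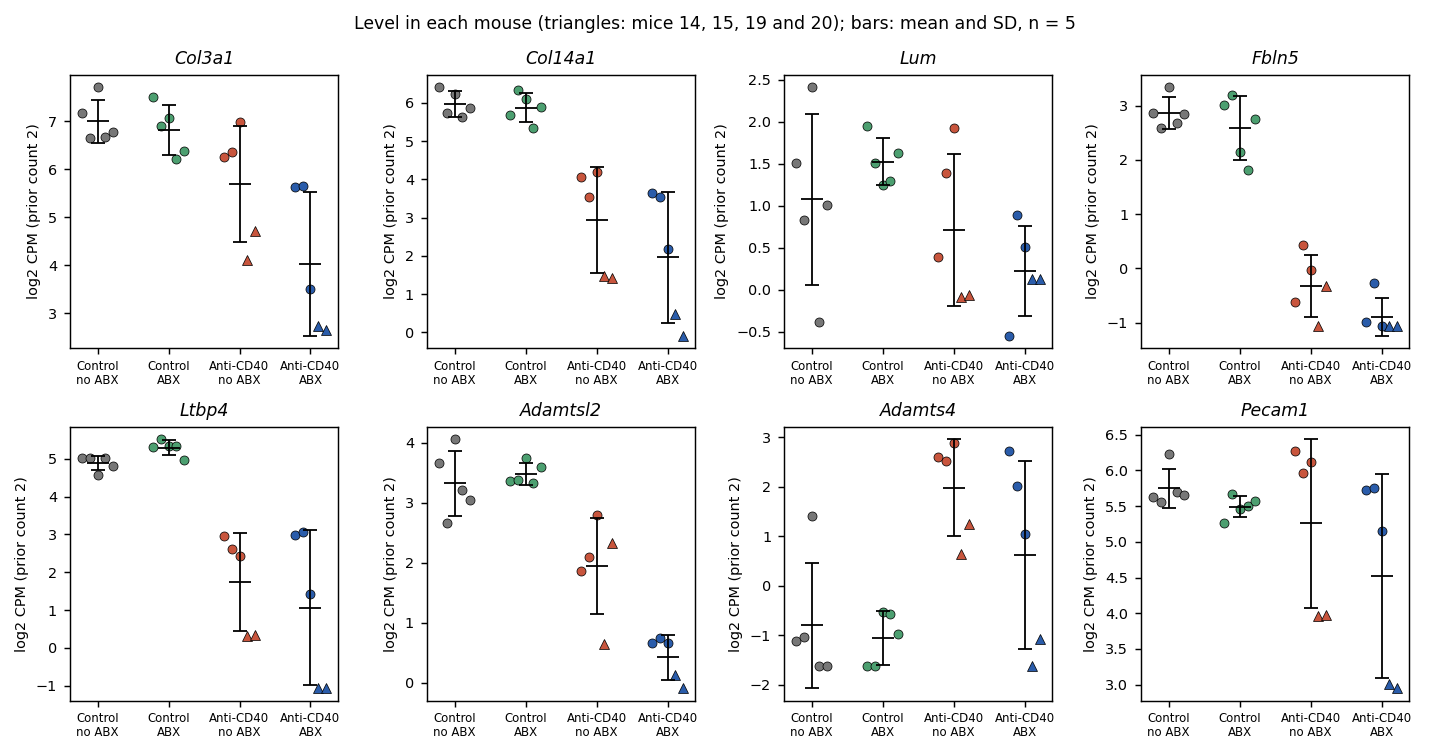
Level of each of the 7 genes, and of Pecam1, in every mouse on the log2 CPM scale (prior count 2), with the mean and SD of each group of 5 mice. Triangles are mice 14, 15, 19 and 20; Fbln5 shows wide gaps between control and anti-CD40 mice, and Adamts4 is the gene whose anti-CD40 mice lie mostly above the controls.

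The fibril genes come first. Col3a1, the chain of the fibrillar type III collagen, stood at 144, 101, 209, 101 and 109.7 CPM in control mice 6 to 10 without ABX. In anti-CD40 mice 16 to 20 without ABX it stood at 76.4, 81.6, 125, 17.01 and 26.01 CPM. Mouse 18 lay within the control range, mice 16 and 17 just under it and mice 19 and 20 far under it, so the groups overlapped. The fitted change was -1.03 ± 0.58 (adjusted p = 0.139), short of a call, from 133 ± 46.1 to 65.2 ± 44.3 CPM; limma voom put it at -1.32 (adjusted p = 0.0424). Without mice 14, 15, 19 and 20 it was -0.52 (adjusted p = 0.342).

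With ABX, Col3a1 stood at 181, 119, 133, 73.7 and 82.8 CPM in control mice 1 to 5. In anti-CD40 mice 11 to 15 it stood at 49.0, 49.8, 10.996, 6.32 and 6.02 CPM. Each of the 5 treated mice lay under the lowest control mouse, with mice 13, 14 and 15 several-fold under mice 11 and 12. Col3a1 fell by 2.29 ± 0.62 on the log2 scale (adjusted p = 0.00532), with a change of -1.72 (adjusted p = 0.00977) without mice 14, 15, 19 and 20. With plate column in the model it stood at -1.77 (adjusted p = 0.233).

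Col14a1 encodes a collagen that sits on the surface of fibrils and does not itself build them. It stood at 84.8, 52.5, 75.0, 49.1 and 58.1 CPM in control mice 6 to 10 and at 16.3, 11.3, 17.98, 2.47 and 2.36 CPM in anti-CD40 mice 16 to 20. The groups did not overlap, and mice 19 and 20 were again the lowest. Col14a1 fell by 2.67 ± 0.55 on the log2 scale (adjusted p = 0.000446), and the change was -2.105 (adjusted p = 3.62e-05) without mice 14, 15, 19 and 20. With plate column in the model, where mouse 16 is the only treated mouse compared, the change was -1.71.

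In ABX-treated mice Col14a1 stood at 50.9, 79.9, 68.3, 40.3 and 58.5 CPM in controls 1 to 5. In anti-CD40 mice 11 to 15 it stood at 12.3, 11.4, 4.24, 1.08 and 0.617 CPM. Mice 14 and 15 had 7 and 4 counts, against 228 to 442 in the controls, and no treated mouse reached the control range. The change was -3.37 ± 0.59 (adjusted p = 0.000125). It was -2.705 (adjusted p = 7.84e-06) without mice 14, 15, 19 and 20, -4.16 with limma voom and -2.965 (adjusted p = 0.025) with plate column in the model.

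Lum encodes lumican, a small leucine-rich proteoglycan that binds collagen fibrils, and it was the least deeply counted gene with 225 counts over all libraries. Without ABX it stood at 2.52, 1.45, 5.00, 0.445 and 1.68 CPM in control mice and at 0.990, 2.30, 3.46, 0.619 and 0.630 CPM in anti-CD40 mice 16 to 20. The groups overlapped over most of their range. The change was -0.45 ± 0.48 (adjusted p = 0.442), and its sign turned to 0.06 without control mouse 8 and to 0.01 without mice 14, 15, 19 and 20.

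With ABX, Lum stood at 3.53, 2.53, 2.05, 2.12 and 2.77 CPM in control mice and at 0.360, 1.53, 1.10, 0.770 and 0.772 CPM in anti-CD40 mice 11 to 15. The ranges did not overlap, although each treated mouse rested on 2 to 9 counts. The change in Lum was -1.5004 ± 0.53 (adjusted p = 0.0198). The call was lost with library totals (-1.17, adjusted p = 0.069), without mouse 11 (-1.32, adjusted p = 0.0508), without mice 14, 15, 19 and 20 (-1.38, adjusted p = 0.0634) and with plate column in the model, where the change was near 0 (adjusted p = 0.998).

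Fbln5, the first of the elastic fibre genes, encodes fibulin-5, which links elastin to microfibrils and to cell-surface integrins. Control mice 6 to 10 without ABX stood at 6.99, 5.66, 9.83, 6.09 and 6.91 CPM, and anti-CD40 mice 16 to 20 at 0.330, 1.02, 0.660, 0.155 and 0.473 CPM. The gap between the groups was wider than the range within either, and the 5 treated mice held 2, 8, 4, 1 and 3 counts against 35 to 59 in the controls. Fbln5 fell by 3.65 ± 0.36 on the log2 scale (adjusted p = 5.98e-09). The change was -3.33 (adjusted p = 6.06e-07) without mice 14, 15, 19 and 20. With plate column in the model, mouse 16 was the only treated mouse compared and the change was -4.22.

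With ABX, Fbln5 stood at 7.70, 8.85, 4.09, 3.18 and 6.46 CPM in control mice and at 0.180, 0.510, 0.157, 0.154 and 0.154 CPM in anti-CD40 mice. Mouse 12 had 3 counts and the other treated mice 1 each, so the size of the change is set by very few fragments. It was -4.62 ± 0.43 (adjusted p = 2.21e-09), and -4.355 (adjusted p = 3.10e-07) without mice 14, 15, 19 and 20. Over all alternatives tried it lay between -5.08 and -4.30.

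Ltbp4 encodes a latent TGF beta binding protein, which tethers the inactive growth factor to microfibrils. Control mice without ABX were close together at 31.998, 31.99, 23.7, 32.2 and 27.6 CPM. Anti-CD40 mice 16, 17 and 18 stood at 7.42, 5.76 and 5.11 CPM and mice 19 and 20 at 0.928 and 0.946 CPM. All 5 were below the controls, and mice 19 and 20 lay well below the other 3. Ltbp4 fell by 2.86 ± 0.56 on the log2 scale (adjusted p = 0.000264), with a change of -2.295 (adjusted p = 1.695e-07) without mice 14, 15, 19 and 20. With plate column in the model it stood at -2.01, on mouse 16 alone of the treated mice.

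With ABX the Ltbp4 groups were again apart. Control mice 1 to 5 stood at 39.5, 45.5, 40.0, 40.5 and 30.8 CPM, and anti-CD40 mice 11 to 15 at 7.57, 7.99, 2.36, 0.154 and 0.154 CPM. Mice 14 and 15 had 1 count each, against at least 167 in each control. The change was -3.47 ± 0.57 (adjusted p = 6.16e-05) over all mice. It was -2.75 (adjusted p = 2.26e-08) without mice 14, 15, 19 and 20, -4.79 with limma voom and -3.505 (adjusted p = 0.00823) with plate column in the model.

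The ADAMTS genes went in opposite directions. Adamtsl2 encodes a secreted ADAMTS-like protein that lacks the protease domain and binds microfibril proteins. It stood at 12.3, 5.98, 16.3, 8.91 and 7.92 CPM in control mice without ABX and at 3.30, 3.97, 6.60, 1.24 and 4.73 CPM in anti-CD40 mice 16 to 20. Mouse 18 lay above the lowest control, mouse 7, and the other 4 treated mice lay below every control. Adamtsl2 fell by 1.38 ± 0.29 on the log2 scale (adjusted p = 0.000243). The change was -1.18 (adjusted p = 0.00106) without mice 14, 15, 19 and 20. It was -1.35 with plate column in the model, on mouse 16 alone of the treated mice.

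With ABX the Adamtsl2 groups were far apart. Controls stood at 9.95, 10.1, 13.02, 9.72 and 11.8 CPM and anti-CD40 mice at 1.26, 1.36, 1.26, 0.770 and 0.617 CPM. Mice 14 and 15 were only slightly under mice 11 to 13, unlike in Col3a1, Col14a1 and Ltbp4. The change was -3.36 ± 0.35 (adjusted p = 1.74e-08), and -3.075 (adjusted p = 2.02e-07) without mice 14, 15, 19 and 20.

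Adamts4, an aggrecanase that cuts large proteoglycans such as versican and aggrecan, was near the limit of detection in control mice. Control mice 6 to 10 stood at 0.140, 0.162, 2.33, 0 and 0 CPM and anti-CD40 mice 16 to 20 at 5.77, 5.38, 7.09, 1.24 and 2.05 CPM. Mouse 8 was the single control with more than 2 counts (14 counts), and mice 19 and 20 lay below it, so the groups overlapped by that 1 control. Adamts4 rose by 3.04 ± 0.96 on the log2 scale (adjusted p = 0.0105), and by 5.47 (adjusted p = 0.000733) without mouse 8. Without mice 14, 15, 19 and 20 the rise was 3.51 (adjusted p = 0.000409), and it was 3.94 with limma voom. With plate column in the model, mouse 16 was the only treated mouse compared. Both controls beside it are at 0 counts, so the fitted size then depends on the prior count.

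With ABX, Adamts4 stood at 0, 0, 0.372, 0.353 and 0.185 CPM in control mice 1 to 5 and at 6.31, 3.74, 1.73, 0 and 0.154 CPM in anti-CD40 mice 11 to 15. Mice 11, 12 and 13 were above every control, and mice 14 and 15, with 0 and 1 counts, were not. A count of 0 in mouse 14 allows up to 0.462 CPM (3 counts, counting error only), and in controls 1, 2, 9 and 10 up to 0.445 to 0.542 CPM. The rise was 3.56 ± 1.27 on the log2 scale (adjusted p = 0.0249). That call was lost with limma voom (2.08, adjusted p = 0.227), with no filter on low counts (3.54, adjusted p = 0.0561) and without mouse 1 (3.24), 2 (3.28), 11 (2.81) or 12 (3.32); without mice 14, 15, 19 and 20 it was 4.29 (adjusted p = 0.000784).

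**Figure D2:**
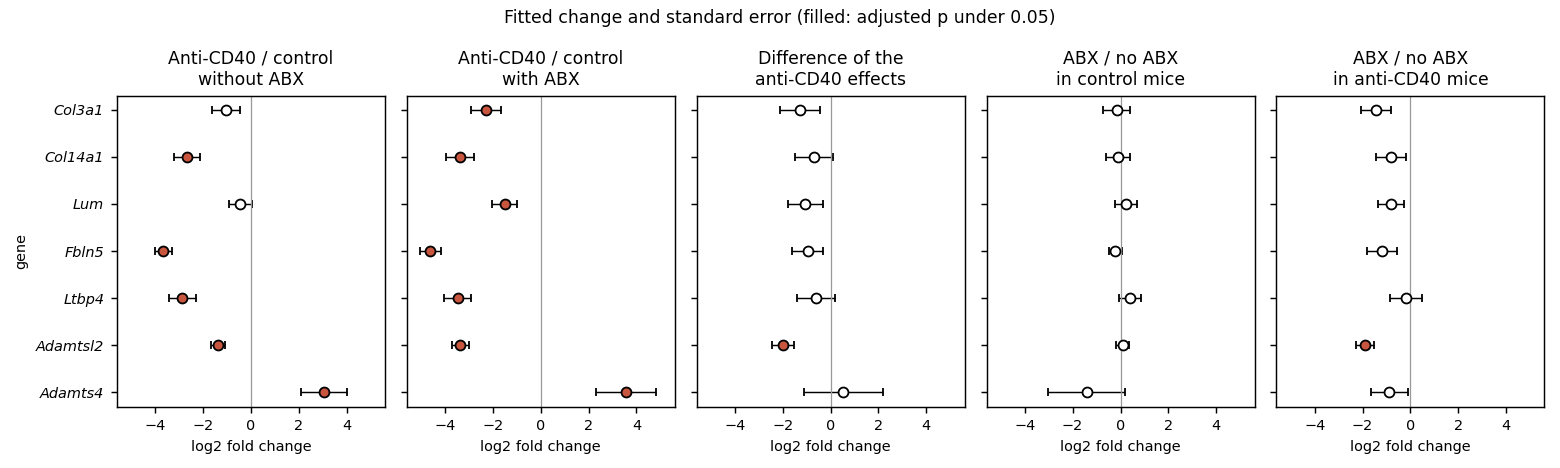
Fitted log2 fold change with its standard error for each gene in the 5 comparisons; filled points have an adjusted p under 0.05. Filled points are 5 and 7 in the anti-CD40 comparisons without and with ABX, Adamtsl2 alone in the difference between those effects and in ABX against no ABX among anti-CD40 mice, and 0 in control mice.

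Within plate column 4, which holds anti-CD40 mouse 16 beside control mice 9 and 10, the log2 ratio of mouse 16 to the mean of the controls was -0.46 for Col3a1, -1.72 for Col14a1, -0.11 for Lum, -4.30 for Fbln5, -2.01 for Ltbp4 and -1.35 for Adamtsl2. Adamts4 stood at 5.77 CPM in mouse 16 and at 0 in both controls. The direction was thus that of all mice for each of the 7, on 1 treated mouse and with no test. The fit with plate column rests on the same mice for anti-CD40 without ABX, so it is not a separate check. With ABX, controls and anti-CD40 mice lie in columns 3 and 4 with no column in common, so column and treatment cannot be told apart there except through the other groups.

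Several of the genes were lowest in the same anti-CD40 mice. Mice 14 and 15 were the lowest pair of their group for 6 of the 7 genes, all but Lum, beside 15.2% of all tested genes. For Fbln5 this order says nothing, since mice 11, 13, 14 and 15 all had 1 count and differ in library size alone. Mice 19 and 20 were the lowest pair of theirs for 5, all but Fbln5 and Adamtsl2, beside 16.3%; both held for 6.55% of genes. Adamts4 was among them in both groups, although it was the gene that rose. Pecam1 had the same 2 lowest pairs, and its part in the results on the 7 genes was not tested. Relative to the mean of controls with the same ABX status, Ltbp4 was at -6.36 in mice 14 and 15 and at -2.32 and -2.24 in mice 11 and 12, log2 CPM. Col14a1 was at -4.49 and -4.55 in mice 19 and 20 and at -1.91, -2.44 and -1.78 in mice 16, 17 and 18.

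**Figure D3:**
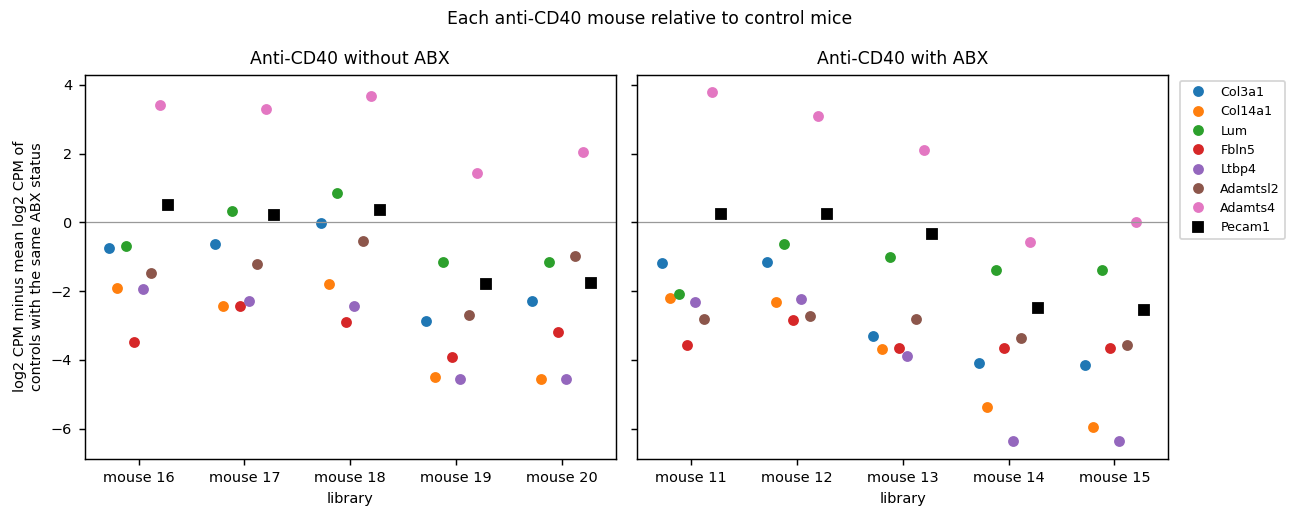
Each anti-CD40 mouse relative to control mice of the same ABX status (log2 CPM minus the mean log2 CPM of those controls), for the 7 genes (circles) and Pecam1 (squares). Ltbp4 and Col14a1 drop furthest in mice 14, 15, 19 and 20, where Pecam1 also drops, and they lie below the line in the other 6 mice, where Pecam1 lies nearer to it or above it.

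The spread relative to the mean was wider in anti-CD40 mice for Ltbp4 and Col14a1, while their SD in CPM was smaller. The coefficient of variation (SD over mean) of Ltbp4 was 12.8% in control and 73.1% in anti-CD40 mice without ABX, and 13.5% and 106.5% with ABX. That of Col14a1 was 23.99% and 73.6% without ABX and 25.7% and 94.3% with ABX. It was higher in anti-CD40 mice also for Col3a1 (34.7% to 67.9% without ABX, 36.5% to 93.7% with ABX), Fbln5, Adamtsl2 and, mainly with ABX, Lum. Anti-CD40 mice together held 18 counts of Fbln5 without ABX and 7 with ABX, and with ABX 32 of Adamtsl2 and 28 of Lum. Counting error alone raises the coefficient at low counts. Its rise in Fbln5, Adamtsl2 and Lum is therefore not read as a wider spread between mice. Pecam1 went from 21.1% to 62.9% and from 10.3% to 73.1%. Adamts4 went from 192.2% to 58.7% without ABX and from 99.7% to 111.5% with ABX. The share over all genes was not taken. These values include mice 14, 15, 19 and 20.

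Col3a1, Col14a1 and Adamtsl2 were counted over several stretches, each a deposited row, which gives a check within the gene. The last 2 stretches of Col3a1 share 117 bp. Without ABX the 3 stretches of Col3a1 changed by -1.24, -1.08 and -0.75, and none was called. With ABX they changed by -2.24, -2.37 and -2.18 and all 3 were called. The 4 stretches of Col14a1 changed by -2.98, -2.79, -3.11 and -2.28 without ABX and by -3.90, -3.64, -3.25 and -3.02 with ABX, each of them called. Both stretches of Adamtsl2 fell in both comparisons, with changes of -1.48 and -1.09 without ABX and of -3.70 and -2.69 with ABX. No stretch went against the sum of its gene in either comparison. Stretches of a gene share the same 20 libraries and are not replicates.

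**Figure D4:**
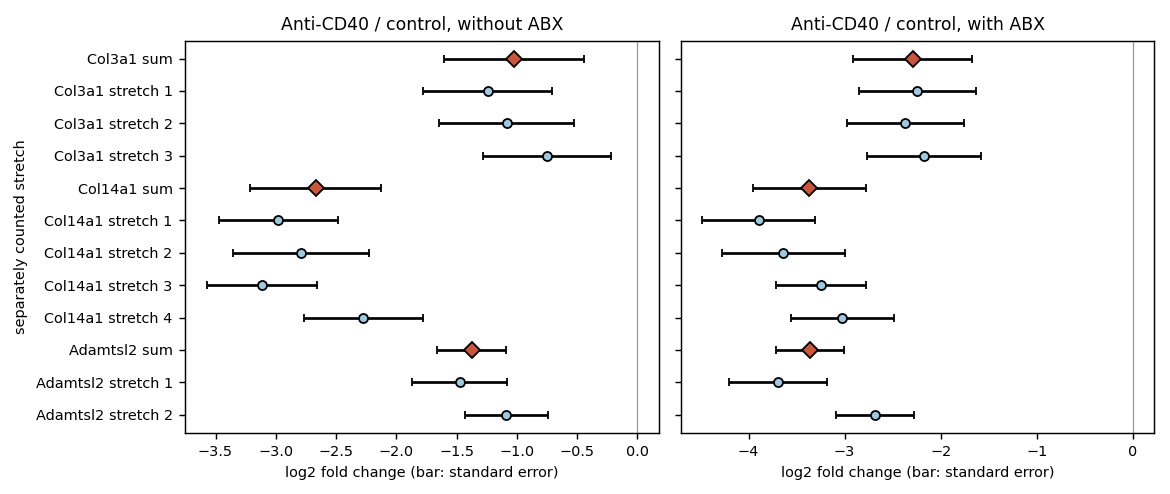
Log2 fold change with its standard error for the gene sum (diamonds) and for each counted stretch (circles) of Col3a1, Col14a1 and Adamtsl2, without ABX (left) and with ABX (right); the 2 panels have different axis ranges. All 9 stretches lie below 0 in both panels.

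Whether the anti-CD40 effect depended on ABX was tested as the difference of the 2 effects. Of the 7 genes 1 was called, Adamtsl2, beside 7.55% of all tested genes (4.36% higher, 3.18% lower). The change of Adamtsl2 with ABX minus that without was -1.99 ± 0.47 (adjusted p = 0.0133), and -1.89 (adjusted p = 0.0312) without mice 14, 15, 19 and 20. The call was lost with limma voom (-1.88, adjusted p = 0.0536) and for the second of its 2 counted stretches taken alone (-1.60, adjusted p = 0.0772). The first stretch alone gave -2.22 (adjusted p = 0.0465). With plate column in the model the difference was -1.56, with mouse 16 the only anti-CD40 mouse without ABX compared. The difference was -1.27 ± 0.84 for Col3a1 (adjusted p = 0.381), -1.05 for Lum (adjusted p = 0.393), -0.97 for Fbln5 (adjusted p = 0.390), -0.70 for Col14a1 (adjusted p = 0.645), -0.61 for Ltbp4 (adjusted p = 0.701) and 0.52 ± 1.65 for Adamts4 (adjusted p = 0.880). For Col3a1 and Lum, called with ABX and not without, the 2 effects were therefore not shown to differ.

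ABX on its own called 0 of the 7 genes in control mice with edgeR, beside 6.68% of all tested genes (3.45% higher, 3.23% lower); 0 had an unadjusted p under 0.05, and DESeq2 and limma voom also called 0. The fitted changes were -0.17 for Col3a1, -0.10 for Col14a1, 0.24 for Lum, -0.22 for Fbln5, 0.41 for Ltbp4, 0.08 for Adamtsl2 (-0.04 with library totals) and -1.41 ± 1.60 for Adamts4, with adjusted p from 0.702 to 0.933. The CPM of the groups overlapped for all 7, beside 6.23% of genes that did not overlap. Within plate column 3, which holds all 5 controls with ABX and controls 6, 7 and 8 without, the log2 ratio of means was 0.43 for Ltbp4 and between -0.36 and -0.08 for Col3a1, Col14a1, Lum, Fbln5 and Adamtsl2. Adamts4 stood at 0.182 CPM with and 0.878 CPM without ABX in that column, the latter almost wholly from mouse 8.

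Among anti-CD40 mice, ABX went with lower Adamtsl2 only, 1 of the 7 called, beside 15.9% of all tested genes (8.68% higher, 7.23% lower). The groups overlapped for all 7, beside 10% of genes that did not overlap. The mean went from 3.97 ± 1.96 to 1.05 ± 0.335 CPM, a change of -1.90 ± 0.38 (adjusted p = 0.00154). Mouse 19, at 1.24 CPM without ABX, lay inside the ABX range and the other 4 lay above it. The call held without mice 14, 15, 19 and 20 (-1.805, adjusted p = 0.0084). With plate column in the model the change was -1.64, against mouse 16 alone of the mice without ABX. Col3a1 stood at -1.43 ± 0.62 (adjusted p = 0.134), Fbln5 at -1.19, Adamts4 at -0.89, Lum at -0.81, Col14a1 at -0.80 and Ltbp4 at -0.20, and none passed. This comparison shares its libraries with both anti-CD40 comparisons above.

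Other genes of the matrix were read from 10 lists of 360 genes, of which 40 besides the 7 were tested. Without ABX 16 of the 40 rose and 9 fell with anti-CD40 (62.5% called, beside 60.6% of all genes), and with ABX 9 rose and 14 fell (57.5%, beside 51.5%). With library totals 20 rose and 6 fell without ABX, and 15 rose and 10 fell with ABX, so the balance of directions depends on the scaling. Their median log2 fold change was 0.18 without ABX and -0.25 with ABX, or 0.43 and 0.096 with library totals. For the difference of the 2 effects, 0 of the 40 were called higher and 2 lower, Htra1 and P4ha1 (5%, beside 7.55% of all genes). With library totals 0 of the 40 were called for the difference. These lists are described by counts alone, and up to 4 genes of each are named by their smallest p. A gene named below for a single ABX status is not thereby shown to differ between the 2.

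Of collagens, Col4a2, a chain of the basement membrane network, rose by 1.20 ± 0.32 without ABX (adjusted p = 0.0036) and by 1.015 ± 0.32 with ABX (adjusted p = 0.0138), opposite to Col3a1 and Col14a1. Col5a1, a minor fibrillar chain, and Col8a1 fell with ABX, at -1.38 and -0.95, and stood at -0.25 and 0.38 without; with library totals the call on Col8a1 was lost (-0.60, adjusted p = 0.189) and Col5a1 without ABX turned to 0.02. Of the proteoglycans, the basement membrane core protein gene Hspg2 fell by 1.25 without ABX, short of a call with library totals (-0.96, adjusted p = 0.109), and the glypican Gpc4 rose by 0.88 and 0.76. Fbln1 and Ltbp1, family members of Fbln5 and Ltbp4, were at -0.80 and -0.40 without ABX and at -0.43 and -0.54 with ABX, and neither was called.

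Of the 4 other ADAMTS and ADAMTS-like genes tested, Adamts1, a protease of proteoglycans, rose in both comparisons by 1.81 and 1.28, in the direction of Adamts4. Adamts5, the other main aggrecanase, fell in both, at -1.75 and -2.83. Adamtsl4 rose by 0.78 without ABX and stood at -0.33 with ABX (adjusted p = 0.409), or 0.01 with library totals. Adamts10 fell by 0.96 with ABX but not with library totals (-0.62, adjusted p = 0.186). Of the other proteases and inhibitors, the broad protease inhibitor A2m rose by 5.14 and 3.85 and the sheddase Adam17 by 1.06 and 1.11. The sheddase Adam9 stood at 0.12 without ABX and at -0.10 with ABX, and at 0.38 and 0.25 with library totals. Htra1, a serine protease, rose by 1.06 without ABX and stood at -0.69 with ABX, a difference of -1.75 ± 0.54 (adjusted p = 0.0486, and 0.0738 with library totals).

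Of 9 matrix glycoproteins tested, 2 rose and 5 fell without ABX and 7 fell with ABX. The laminin chain gene Lama3 fell, at -2.82 without ABX and -2.65 with ABX, as did the netrin Ntn1, at -1.73 and -2.78. Crispld2 rose by 2.77 without ABX and stood at 0.09 with ABX. Nid2, a linker of basement membranes, fell, at -0.94 and -1.10, in contrast to the basement membrane collagen Col4a2. In collagen processing, the prolyl hydroxylase subunit P4ha1 rose by 1.99 and 1.17, a difference of -0.82 (adjusted p = 0.032, and 0.0788 with library totals). The secretory pathway factor Creb3l2 rose by 0.56 and 0.67, while Plod1 was at -0.17 and 0.15, or 0.08 and 0.49 with library totals. The P4ha1 enzyme hydroxylates collagen prolines, and its RNA was higher where that of Col14a1 was lower. In the TGF beta list 1 of 6 rose and 1 fell in each comparison. With library totals 4 rose and 0 fell without ABX, and 3 rose and 1 fell with ABX, so this balance depends on the scaling. The activin chain gene Inhbb rose by 2.27 without ABX and Bmp10 fell by 3.11 with ABX. The receptor gene Bmpr1a rose by 0.51 with ABX and stood at 0.21 without, where library totals called it (0.45, adjusted p = 0.0131). Bmpr2 fell by 0.44 without ABX, short of a call with library totals (-0.18). With ABX Bmpr2 stood at -0.19, or 0.16 with library totals. Of 5 integrins and matrix receptors, the thrombospondin receptor Cd47 rose by 1.63 and 1.77. The integrin chains Itga3 and Itgb8 rose by 0.47 and 1.28 without ABX, the latter short of a call with DESeq2 size factors (1.27, adjusted p = 0.05003), and Itgb5 fell, at -0.47 without and -0.31 with ABX, the latter turning to 0.03 with library totals.

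ABX called 1 of the 40 in control mice, beside 6.68% of all genes: P4ha1 (0.64 ± 0.17, adjusted p = 0.0286, and 0.0995 with library totals). In anti-CD40 mice ABX called 1 higher and 7 lower of the 40, beside 8.68% and 7.23% of all genes; with library totals 1 was higher and 6 lower, the call on Col8a1 being lost. Creb3l2 was the one that rose, and A2m (-2.25), Crispld2 (-2.09), Inhbb (-1.60), Htra1 (-1.50), Col8a1 (-1.11), Adamtsl4 (-0.98) and Adam9 (-0.34) fell.

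**Figure D5:**
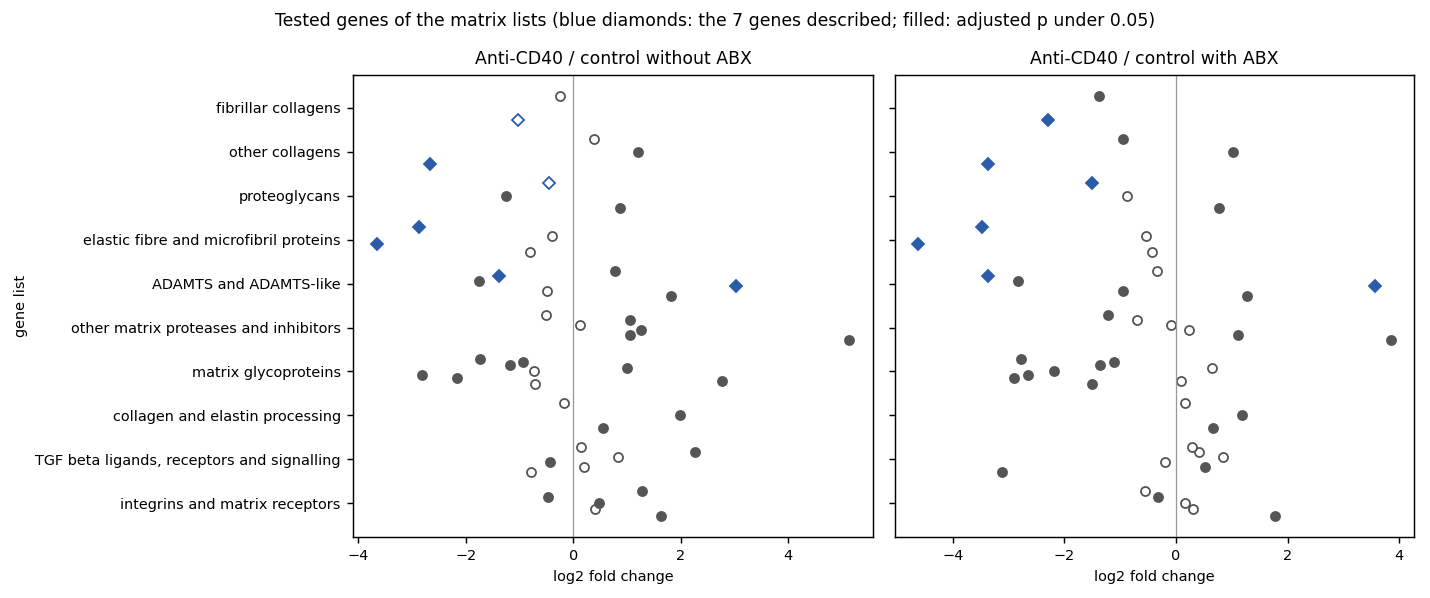
Log2 fold change of each tested gene of the 10 matrix lists for anti-CD40 against control, without ABX (left) and with ABX (right); height within a list only separates the points. Blue diamonds are the 7 genes, circles the other 40, and filled symbols have an adjusted p under 0.05; the circles spread to both sides of 0.

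Markers of the cells that make matrix were sparsely measured. Of 25 stellate cell genes, Hhip and Pth1r had counts besides Adamtsl2, with a summed level of 5.82 to 8.93 CPM in controls and 0.315 to 1.65 CPM in anti-CD40 mice without ABX, and of 4.01 to 9.67 CPM and 0.154 to 1.80 CPM with ABX. Pth1r, the tested one, fell, at -3.07 ± 0.33 without ABX (adjusted p = 2.27e-08) and -3.49 ± 0.36 with ABX (adjusted p = 1.32e-08). Of the 19 activated myofibroblast genes, Fap had counts besides Col3a1, at 0.149 to 0.337 and 0.185 to 0.542 CPM in controls and 1.10 to 2.80 and 0.721 to 1.39 CPM in anti-CD40 mice, too few to test. Portal fibroblast and neutrophil genes had no attributed counts, and the 3 smooth muscle genes with counts (Myh11, Synpo2 and Notch3) summed to 1.78 to 3.91 and 2.48 to 15.6 CPM in controls and 0.315 to 1.98 and 0.510 to 1.70 CPM in anti-CD40 mice. The 15.6 CPM is mouse 1 alone, and the other controls with ABX lay at 2.48 to 3.98 CPM. The common stellate and myofibroblast genes such as Lrat, Des, Acta2 and Col1a1 were on these lists but had no attributed counts, so their levels are not known here.

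Marker genes of other cell types were read in the same way, beside 60.6% of all genes called without ABX and 51.5% with ABX. The 7 measured genes of 31 endothelial ones summed to 136 to 189 and 126 to 163 CPM in controls and to 29.8 to 117 and 17.6 to 88.9 CPM in anti-CD40 mice, and 4 of 6 tested fell without ABX and 5 with ABX. Stab2, a scavenger receptor of sinusoidal endothelium, fell, at -3.36 ± 0.31 without and -3.83 ± 0.33 with ABX, as did the endothelial receptor Tie1, at -1.27 ± 0.32 and -1.59 ± 0.32. The 4 macrophage and monocyte genes summed to 116 to 333 and 112 to 177 CPM in controls and to 283 to 1103 and 306 to 914 CPM in anti-CD40 mice. The 333 CPM is mouse 8 alone, and the other controls without ABX lay at 116 to 147 CPM. Of these genes 2 rose and 1 fell without ABX, and 3 rose and 1 fell with ABX. Lyz2, a lysozyme gene of monocytes and macrophages, holds most of that sum and rose by 2.32 ± 0.40 and 2.28 ± 0.40. The macrophage marker Adgre1 fell, at -2.50 ± 0.38 without and -2.54 ± 0.39 with ABX, and the scavenger receptor gene Marco was at 1.14 and 1.72, the latter called. All 8 measured hepatocyte genes were tested, among them Alb at a mean of 159630 CPM in control mice without ABX, and 2 rose and 6 fell without ABX and 2 rose and 5 fell with ABX. Without ABX, of the remaining tested marker genes both T cell genes rose, 1 of 2 cholangiocyte genes rose and 1 fell, the single adipose gene (Cfd) fell, and 0 of 2 B cell and 0 of 3 proliferation genes passed. With ABX both T cell genes, 1 of 2 cholangiocyte genes and 1 of 2 B cell genes rose, 1 of 3 proliferation genes rose and 1 fell, and the adipose gene did not pass. With library totals Pcna of the proliferation list and Marco were called higher without ABX and Asgr1 lost its call, and with ABX Pcna and Cd79b were called higher and Stab1, Asgr1 and Ccnb2 lost their calls. The part of these cell types in the levels of the 7 genes was not tested.

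Genes with the most similar course over the 20 libraries were found by the root mean square difference of log2 CPM after centring, among 2182 genes with a mean of at least 1 CPM. For Col3a1 they were Lamb1 (0.50), Ntn1 (0.51) and Lhfp (0.60), against a median of 1.53 over all genes. For Col14a1 they were Adam23 (0.50), Stab2 (0.65) and Ntn1 (0.69), against 2.07. For Ltbp4 they were Adam23 (0.68), Stab2 (0.72) and Adgrl4 (0.83), against 2.19, and Col14a1 and Ltbp4 were the nearest pair among the 7 (0.42). For Fbln5 they were Syt15 (0.58), Stab2 (0.64) and Ehd3 (0.65), against 1.77. For Adamtsl2 they were Amotl1 (0.68), Ntn1 (0.68) and Gm16157 (0.69), against 1.36. For Lum they were Ckb (0.58), Col5a1 (0.58) and Dagla (0.59), against 0.91, a narrow margin. For Adamts4 they were Cyp1b1 (0.61), Ms4a6d (0.74) and Ifi206 (0.77), against 1.69. These are distances in the same libraries, given with no test.

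Promoter windows of RefSeq (GRCm38.p6, the 250 bases before the start) were matched for 4 of the 7 genes, Col3a1, Fbln5, Ltbp4 and Adamtsl2, which all were lower in anti-CD40 mice with ABX. Adamts4, Col14a1 and Lum had no entry. Windows were searched on both strands for the NF-kB consensus, the AP-1 letters TGANTCA, the TATA box letters TATAAA and the GAS letters TTCNNNGAA, found in 5.0%, 6.7%, 12.4% and 7.0% of all 32851 windows. Col3a1 and Adamtsl2 each held 1 match to the TATA box letters, in capitals below, and no other match. The match lies much nearer the start in Adamtsl2 than in Col3a1, and distance from the start was not part of the search. The windows of Fbln5 and Ltbp4 held none of these letters.
Col3a1, chr1:45311288-45311537, plus strand: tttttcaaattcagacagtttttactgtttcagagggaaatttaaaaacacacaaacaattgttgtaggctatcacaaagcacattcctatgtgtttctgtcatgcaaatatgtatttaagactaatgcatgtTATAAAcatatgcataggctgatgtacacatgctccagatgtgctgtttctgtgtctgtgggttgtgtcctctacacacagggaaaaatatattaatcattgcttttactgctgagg
Adamtsl2, chr2:27079129-27079378, plus strand: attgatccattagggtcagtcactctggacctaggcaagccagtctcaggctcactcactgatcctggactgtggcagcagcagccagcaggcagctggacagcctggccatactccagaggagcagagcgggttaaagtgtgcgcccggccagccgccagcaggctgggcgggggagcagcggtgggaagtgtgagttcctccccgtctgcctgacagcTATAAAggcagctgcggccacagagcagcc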

How the data were processed

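Whole-liver RNA of 20 mice, 1 library each, was measured by paired-end RNA-seq. The deposited values are raw counts per row; per the file headers they were made with featureCounts 1.5.0-p2 on exons grouped by gene with the human Ensembl 93 annotation and no strand setting. The submitters' processing notes list mm10, HISAT2 2.1.0 and Trimmomatic 0.38. Human gene names of these rows were therefore not used. The human exon coordinates were read as mm10 positions, and a row was given to a mouse gene where it covered at least 50 bp of exons of exactly 1 GENCODE M21 gene (bedtools 2.31.1). Of 58395 rows 7463 were so attributed, to 5552 genes, with 46.35% of counts. Left out were rows that overlap more than 1 gene, with 52.34% of the counts. No strand was used, so antisense transcripts at these stretches cannot be told apart.

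Counts were summed per gene and fitted in 1 model with a mean per group over all 20 libraries (edgeR 4.0.16 in R 4.3.3, quasi-likelihood, TMM with library totals, filterByExpr, 2200 genes tested, Benjamini-Hochberg, called at an adjusted p under 0.05). Log2 CPM used a prior count of 2. The steps were also run on simulated counts, with changes in a single group and in a smaller share of genes than called here. No support is taken from that run. Alternatives were DESeq2 (1.42.0), its size factors, library totals, limma voom (3.58.1), no low-count filter, other attribution rules, plate column as a term, separate rows and each mouse left out. The labels call the samples individual mice. The 7 genes and all gene lists were chosen with earlier results of these data known. Named beside the 7 are up to 4 genes of each matrix list by smallest p, up to 3 of each cell type list by mean CPM, the 3 nearest in course to each of the 7, and Pecam1; the list genes named for ABX among anti-CD40 mice were chosen after their values were seen. DNA sequences are from GENCODE M21 transcripts and RefSeq.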

Additional observations from a re-analysis of the deposited data

Results flagged for a closer look

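In 32 groups of 5 mice (the 7 genes and Pecam1 in 4 groups), 3 held a mouse far from the other 4 in log2 CPM. The cutoff is set to flag about 1 in 20 independent groups of normal values. These groups share libraries and some hold few counts, so that rate does not apply to them. Fbln5 in anti-CD40 mouse 12 with ABX stood at -0.26 log2 CPM, with the next mouse at -0.99, which is 3 counts against 1. Adamts4 in control mouse 8 without ABX stood at 1.41, with the next at -1.04. Pecam1 in the same mouse stood at 6.23, with the next at 5.70. The anti-CD40 effect on Adamtsl2 differed with and without ABX by -1.99 on the log2 scale, as tested in the report.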

How the results depend on the processing

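No paired analysis was possible because no mouse number occurs in more than 1 group. Of the values of single genes over all alternatives, 0 reversed for anti-CD40 with ABX and 2 without ABX, both Lum: 0.064 without mouse 8 (range -0.91 to 0.064 over mice left out) and 0.0103 without mice 14, 15, 19 and 20. For the difference of the effects, Adamts4 turned to -1.86 with limma voom, -1.91 without mouse 8 and -0.21 without mouse 11 (range -1.91 to 0.92), and Lum to 0.066 with plate column as a term. For ABX in control mice, Adamtsl2 turned to -0.041 with library totals, -0.079 with plate column and -0.060 without mouse 7 (range -0.060 to 0.31). There Lum turned to -0.19 with plate column and -0.029 without mouse 9 (range -0.029 to 0.76), and Col14a1 to 0.0070 and 0.019 without mice 4 and 6 (range -0.24 to 0.019). Without mouse 8, Col3a1 turned to 0.051 (range -0.38 to 0.051) and Adamts4 to 1.03 (range -1.80 to 1.03). For ABX in anti-CD40 mice, Ltbp4 turned to 0.13 without mouse 14, 15 or 16 (range -0.72 to 0.13). With plate column as a term, 2 of the 7 genes were called for anti-CD40 without ABX, 0 for the difference and 0 for ABX in anti-CD40 mice. Over all genes it called 735, 690, 0, 77 and 5 for anti-CD40 without ABX, with ABX, the difference, ABX in control and ABX in anti-CD40 mice, against 1333, 1133, 166, 147 and 350; limma voom called 0 of the 7 for the difference. Without mice 14, 15, 19 and 20, 79 genes were called for the difference and 170 for ABX in anti-CD40 mice. Leaving out each mouse gave 1262 to 1349, 1047 to 1154, 88 to 194, 89 to 157 and 225 to 380 genes in that order. Calls on the 7 genes then stayed at 5, ranged from 5 to 7, and stayed at 1, 0 and 1. The difference fell to 109 genes without mouse 4, 110 without mouse 5, 104 without mouse 10, 88 without mouse 14 and 94 without mouse 18. ABX in control mice fell to 90 and 89 without mice 4 and 10, and ABX in anti-CD40 mice to 225 and 230 without mice 14 and 18. Attribution from 150 bp gave no Adamts4 value, because its only row covers 117 bp. The cause of the other changes was not tested, beyond the fewer mice compared. Depth limits Lum, Fbln5 in treated mice and Adamts4 in controls, which rest on few counts.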
